A study of Homo sapiens with 6 samples.

Results

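The 48 proteasome genes of the expression table were examined in SW480 cells with and without *MDM4*. Members were all rows whose symbol begins with PSMA, PSMB, PSMC, PSMD, PSME, PSMF or PSMG followed by a digit, which took 49 of 19225 rows. One of the 49, *PSMC3IP*, encodes a meiotic recombination factor and no proteasome subunit, and was counted apart. The cells were SW480, a line established from a colon cancer, and carried mutant p53 in both groups. RNA sequencing covered 3 control libraries and 3 libraries of cells transiently transfected with plasmids encoding MDM4, numbered as replicates 1 to 3 of their group. The sample titles name no transfection or plasmid for the control cells, no time after transfection and no separate cultures. They call the second group "exercised", which was read as the MDM4 group since it is the only other one. The value columns carry only G or M and a number, and these letters were read as control and MDM4. Where libraries share a culture, p-values measure a technical spread. Levels are FPKM, the reads on a gene divided by its length and by the library's total, so that different genes can be set side by side. In bulk RNA, fewer cells that express a gene and less RNA per cell cannot be told apart.

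The proteasome degrades ubiquitin-tagged proteins. Its 20S core is a barrel of α and β rings with the cutting sites inside, and the 19S cap on top binds ubiquitin, removes it and unfolds the substrate with a ring of ATPases. Interferons induce replacements for the catalytic β subunits and the PA28 activator, and the resulting immunoproteasome shapes the peptides that MHC class I molecules present. In colon cancer cells, as in other epithelial tumour cells, the constitutive particle is a housekeeping machine, while the inducible subunits vary with cytokine signalling. MDM4 is known as a partner of MDM2 that inhibits p53.

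The immunoproteasome genes are shown here by their start regions, because 4 of the 5 hold an interferon motif that most other members lack. Capitals mark GAAANNGAAA, the core of the interferon-stimulated response element, or TTCNNNGAA, the gamma-activated site, on either strand. Each stretch runs from 80 bases before to 25 after a RefSeq start on GRCh38.p14, in the direction of transcription. For *PSMB9* and *TAP1* it runs from 150 before. *PSMB8*, *TAP1* and *PSMB5* each have 2 start windows, and the stretch shown was picked from a window that holds a marked motif.
PSMB8: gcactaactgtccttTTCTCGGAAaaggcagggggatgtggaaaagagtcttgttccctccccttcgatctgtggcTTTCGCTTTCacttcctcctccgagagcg
PSMB10: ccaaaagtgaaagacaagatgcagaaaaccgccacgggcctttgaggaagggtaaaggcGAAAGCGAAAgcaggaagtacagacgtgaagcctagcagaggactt
PSME1: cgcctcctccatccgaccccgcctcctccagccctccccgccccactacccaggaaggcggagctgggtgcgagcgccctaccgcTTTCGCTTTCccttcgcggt
PSME2: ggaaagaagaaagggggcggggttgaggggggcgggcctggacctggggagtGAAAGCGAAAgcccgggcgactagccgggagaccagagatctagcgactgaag
PSMB9: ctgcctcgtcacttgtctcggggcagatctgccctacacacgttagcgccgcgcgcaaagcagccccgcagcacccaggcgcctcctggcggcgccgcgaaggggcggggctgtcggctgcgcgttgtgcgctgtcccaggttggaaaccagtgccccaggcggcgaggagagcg
TAP1: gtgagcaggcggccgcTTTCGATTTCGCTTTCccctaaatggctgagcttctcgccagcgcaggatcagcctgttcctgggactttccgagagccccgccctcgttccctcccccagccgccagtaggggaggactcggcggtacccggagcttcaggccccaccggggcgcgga
PSMB5: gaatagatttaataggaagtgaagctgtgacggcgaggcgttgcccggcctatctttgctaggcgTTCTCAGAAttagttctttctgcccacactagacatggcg
In order, these lie at chr6:32844023-32844127 (minus strand), chr16:67936826-67936930 (minus), chr14:24136114-24136218 (plus), chr14:24146586-24146690 (minus), chr6:32854042-32854216 (plus), chr6:32853680-32853854 (minus) and chr14:23034876-23034980 (minus). *PSMB5*, the constitutive counterpart of *PSMB8*, and *TAP1*, a peptide transporter gene whose start used here lies 487 bases from that of *PSMB9*, are shown for comparison.

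GAAANNGAAA was found on either strand in 4 of the 5 immunoproteasome genes and in 3 of the 37 other members with a window, *PSMA4*, *PSMB4* and *PSMG4*. It was present in 3.57% of all 35116 RefSeq windows, which run from 250 bases before to 50 after a start, and 42 of the 48 members had such a window. The window of *PSMB9* lacked it, while 1 of the 2 windows of *TAP1* held 2 overlapping copies between 134 and 119 bases before its start. The other *TAP1* window lacked it and held TTCNNNGAA between 189 and 181 bases before its own start. In *PSMB8* the copy was likewise in 1 of 2 windows. The copies in *PSMB8*, *PSMB10*, *PSME1*, *PSME2* and *PSMG4* had the same 10 letters, GAAAGCGAAA or their reverse complement TTTCGCTTTC, which occur in 0.0997% of windows and which were picked after the windows were read. The same letters were in a window of *TAP1* and in a window of *TAP2*, which are no members. TTCNNNGAA was found in *PSMB8* alone among the immunoproteasome genes and in 7 of the 37 others, beside 7.66% of all windows. TGACNNNGC, the core of the antioxidant response element that NRF1 and NRF2 bind, was in 3 immunoproteasome genes and in 12 of the 37 others, beside 13.3% of all windows. Several genes have more than 1 window, so these shares per gene are not on the same footing as the shares of windows. Such matches describe letters only.

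Reads on genes, recovered from the steps of the FPKM values, numbered 32921704 to 44562216 per library. *MDM4* was at 6.35, 7.09 and 5.13 FPKM in the control libraries, in the order of replicates 1 to 3 used throughout. In the libraries read as the MDM4 group it was at 188, 185 and 56.3 FPKM, and so higher in each. These values do not tell plasmid from endogenous transcripts. Colon epithelial markers were present, with 7 of 8 at 1 FPKM or more and a summed level of 4544 to 4902 FPKM in control and 4221 to 4520 FPKM in MDM4 libraries. Of the markers of other cell types, 1 of 5 leukocyte, 1 of 3 fibroblast and 0 of 3 endothelial genes reached 1 FPKM, and *PTPRC*, *COL1A2*, *DCN*, *PECAM1* and *CDH5* were under 0.1. Replicate 3 stood apart from replicates 1 and 2 in both groups, so that differences are also given over replicates 1 and 2 alone.

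All 5 immunoproteasome genes were lower on average with MDM4, beside 52.8% of all genes tested, and none passed the test over 3 against 3 libraries. *PSMB8* encodes the inducible β5i subunit with chymotrypsin-like activity, and lies at chr6:32840717-32844703 in the MHC region (GRCh38, GENCODE release 29). It was at 27.6, 23.7 and 25.4 FPKM in control and at 17.0, 19.1 and 22.5 FPKM with MDM4, from 834 to 1665 reads. All MDM4 values were below all control values, and the gap between same-numbered libraries on the log2 scale was -0.70, -0.31 and -0.18 for replicates 1 to 3. The mean was 25.6 ± 1.96 FPKM in control and 19.5 ± 2.80 FPKM in MDM4 libraries (SD, n = 3), which is 23.7% lower. The log2 difference, MDM4 minus control, was -0.39 (standard error 0.12, unadjusted p = 0.0121, adjusted p = 0.9999 from limma), and 228th from the lowest of 12884 genes tested.

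*PSMB9*, which encodes the inducible β1i subunit, is the neighbour of *PSMB8* on the other strand, at chr6:32844136-32859585. It was at 17.8, 18.4 and 17.1 FPKM in control and at 12.7, 15.9 and 17.0 FPKM with MDM4, from 484 to 835 reads. The groups did not overlap, but MDM4 replicate 3 all but reached control replicate 3, with a log2 difference of -0.01 between them. Over all libraries the log2 difference was -0.24 (standard error 0.12, adjusted p = 0.9999 from limma), and without MDM4 replicate 1 it was -0.12. In the annotation *PSMB9* overlaps *PSMB8*, *PSMB8-AS1* and *TAP1* on the opposite strand or its own, and it is not given whether reads were counted by strand, so that reads of these genes may be shared.

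*PSMB10*, the gene of the inducible β2i subunit, lies at chr16:67934502-67937087, away from the other inducible subunits. It was at 25.9, 22.3 and 21.8 FPKM in control and at 19.9, 21.9 and 19.3 FPKM with MDM4. Here the groups overlapped, since MDM4 replicate 2 was above control replicate 3. The log2 difference was -0.19 (standard error 0.10, adjusted p = 0.9999 from limma), and -0.38, -0.03 and -0.18 within replicates 1 to 3. Without control replicate 1 it was -0.12.

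The PA28 activator genes were the members with the most reads in this list and stand near each other on chromosome 14. PA28 is a ring of α and β subunits that docks on the 20S core in place of the 19S cap and opens it. *PSME2*, the β subunit gene at chr14:24143362-24147570, was at 121.6, 115.1 and 113.7 FPKM in control and at 89.9, 89.8 and 103.3 FPKM with MDM4. The mean went from 116.8 ± 4.19 to 94.3 ± 7.77 FPKM (SD, n = 3), 19.2% lower with MDM4, without overlap. The log2 difference was -0.31 (standard error 0.075, unadjusted p = 0.00352, adjusted p = 0.9999 from limma), the smallest unadjusted p among the members. Over replicates 1 and 2 alone, *PSME2* fell by 0.40 on the log2 scale (adjusted p = 0.018 from limma). This was the only member to pass there, beside 0.536% of all genes tested, and with voom on the recovered reads of the same 4 libraries 0 members passed, beside 0.505% of all genes. *PSME2* has 2 pseudogenes by name, which could share its reads. The same limit holds for others, since 10 tested members have at least 1 such pseudogene, *PSME2* and *PSMB7* among them.

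*PSME1*, the α subunit gene at chr14:24136158-24138967, was at 95.5, 90.1 and 86.1 FPKM in control and at 77.3, 75.4 and 83.2 FPKM with MDM4. The MDM4 libraries again lay below the control libraries, with replicate 3 of each group the nearest pair. The mean was 13.1% lower with MDM4, and the log2 difference was -0.20 (standard error 0.070, unadjusted p = 0.0209, adjusted p = 0.9999 from limma). The plot of the levels by library sets these 5 genes beside the constitutive catalytic subunits.

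**Figure D1:**
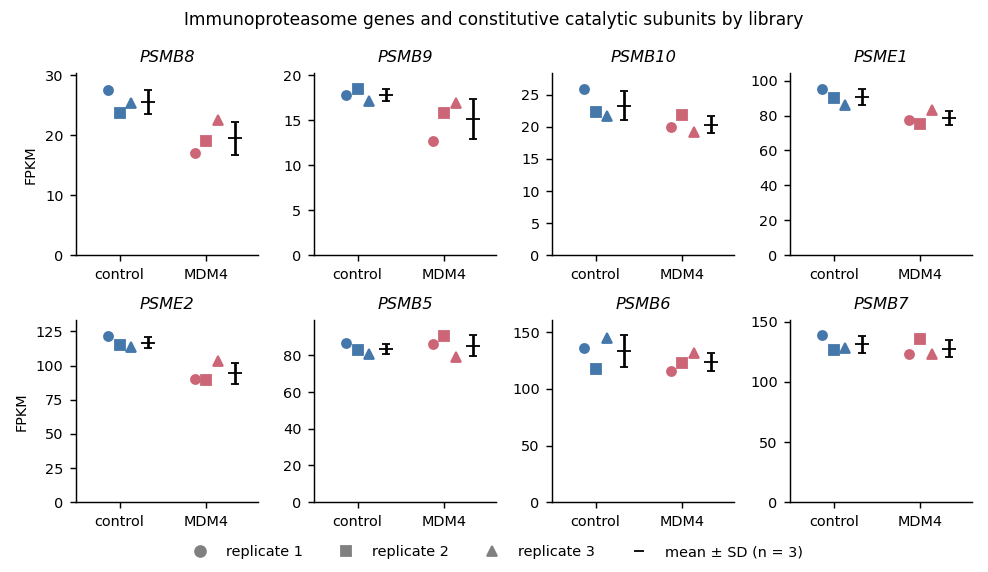
Level in FPKM (y axis, from 0) of the 5 immunoproteasome genes and of PSMB5, PSMB6 and PSMB7 in the 3 control and 3 MDM4 libraries, with symbols for the replicate number and bars for the mean ± SD (n = 3). The MDM4 libraries lie below the control libraries for PSMB8, PSMB9, PSME1 and PSME2, while the groups overlap for PSMB10 and the 3 constitutive subunits.

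As a list, the immunoproteasome genes had a median log2 difference of -0.24, and -0.43, -0.26 and -0.14 within replicates 1 to 3, with all 5 lower in each replicate. The median over all 12884 genes tested was -0.01, and over the 34 tested constitutive genes -0.04. These were genes of the 20S core and the 19S cap, with the 19S assembly chaperone genes *PSMD5*, *PSMD9* and *PSMD10* counted in. Over replicates 1 and 2 alone the medians were -0.35 for the immunoproteasome and -0.03 for the constitutive genes. In 4 of the 5 genes the difference was nearest 0 in replicate 3, the replicate in which *MDM4* was at 56.3 FPKM in the transfected cells, and the part of the *MDM4* level in this was not tested.

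Among the 46 members tested, 0 passed an adjusted p under 0.05 in limma over all 6 libraries, beside 0% of all genes tested, and 0 passed with voom on the recovered reads, beside 0% as well. *MDM4* itself did not pass in either of these fits, at a log2 difference of 4.33 (adjusted p = 0.161 from limma). It passed in limma with the replicate block (adjusted p = 4.77e-05). With the replicate number as a block, 0 members passed in limma, beside 0.0155% of all genes, and 0 with voom, beside 0.225%. Over replicates 1 and 2 with the block, *PSMB8* and *PSME2* passed, beside 1.33% of all genes, a fit chosen after the data were seen. At an unadjusted p under 0.05, 3 members stood out in limma, *PSMB8*, *PSME1* and *PSME2*, all lower with MDM4, beside 1.72% of all genes, and the same count with voom, beside 1.82%. With the block this count was 6, with *PSMB9*, *PSMB10* and *PSMA7* added, beside 12.6% of all genes. The share among the members was then close to that over all genes. Groups without overlap and with MDM4 lower were found in 7 of 46 members, *PSMB8*, *PSMB9*, *PSME1*, *PSME2*, *PSMA7*, *PSMC2* and *PSMF1*, beside 3.76% of all genes. In 0 of 46 members were all MDM4 libraries higher, beside 3.1% of all genes.

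**Figure D2:**
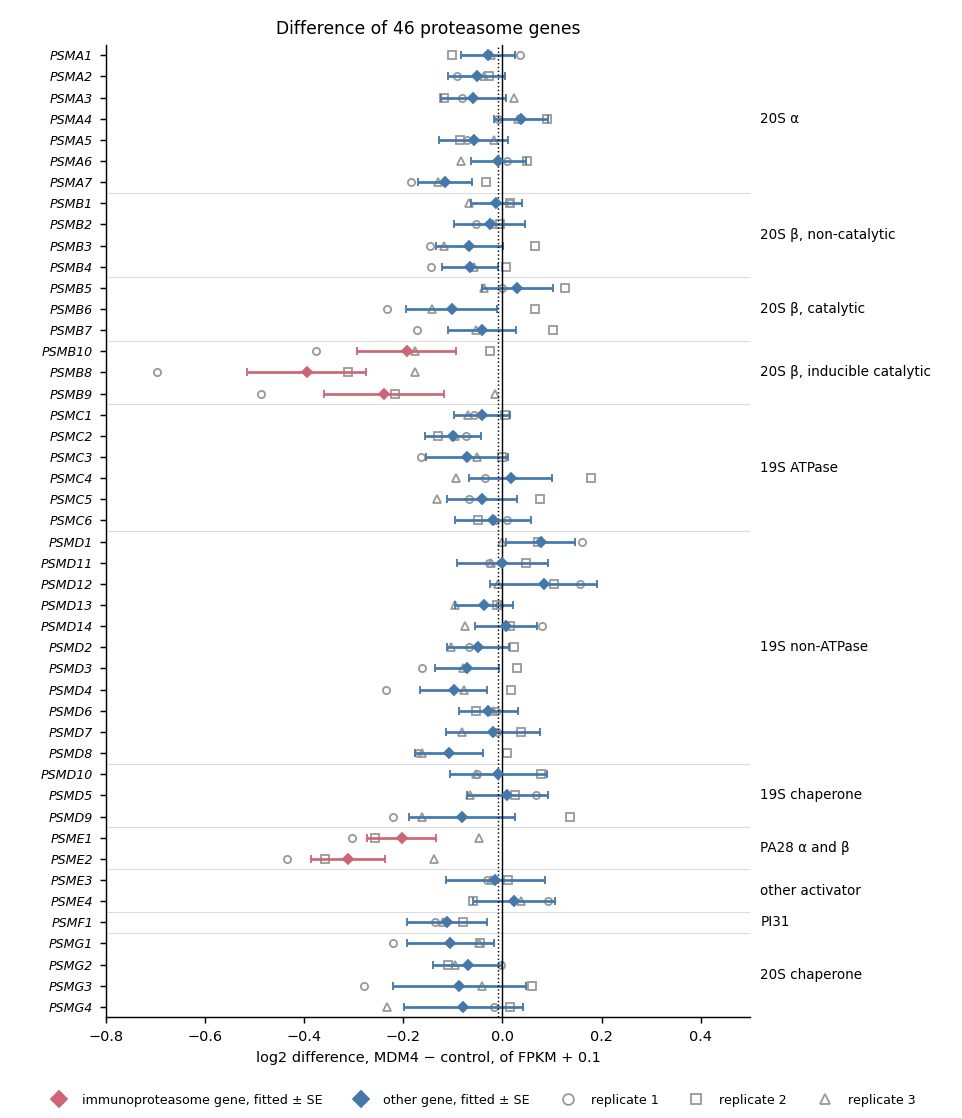
Log2 difference, MDM4 minus control, of FPKM + 0.1 (x axis) for the 46 tested proteasome genes grouped by role (y axis), with filled diamonds and bars for the fitted difference ± standard error and open symbols for same-numbered libraries; the solid line marks 0 and the dotted line the median of all genes. The 5 immunoproteasome genes run from -0.39 to -0.19, and the 41 others from -0.12 to 0.08.

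The constitutive catalytic subunits differed little and in no fixed direction. *PSMB5*, the chymotrypsin-like subunit, was at 86.5, 83.0 and 81.0 FPKM in control and at 86.4, 90.6 and 79.0 FPKM with MDM4. *PSMB6*, the caspase-like subunit, was at 136, 118 and 145 FPKM in control and at 116, 123 and 132 FPKM with MDM4. *PSMB7*, the trypsin-like subunit, was at 139, 127 and 128 FPKM in control and at 124, 136 and 123 FPKM with MDM4. For all 3 the groups overlapped, and the log2 differences were 0.03, -0.10 and -0.04 (standard errors 0.072, 0.091 and 0.068). In replicate 2 all 3 were higher with MDM4, and in replicates 1 and 3 all 3 were lower.

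Because an inducible subunit takes the place of its constitutive counterpart in newly built particles, the balance within each pair was also examined. *PSMB8* made up 24.2%, 22.2% and 23.9% of the summed *PSMB8* and *PSMB5* FPKM in control and 16.4%, 17.4% and 22.2% with MDM4. The share was 23.4 ± 1.07% in control and 18.7 ± 3.09% with MDM4 (SD, n = 3). The groups did not overlap, by a narrow gap between control replicate 2 and MDM4 replicate 3, and the log2 ratio differed by -0.42 (two-sided exact permutation test, p = 0.1, which is the lowest value this design can give). With 1 in place of 0.1 FPKM added to each level, the log2 ratio differed by -0.41 (two-sided exact permutation test, p = 0.2).

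*PSMB10* made up 15.7%, 14.97% and 14.5% of its pair with *PSMB7* in control and 13.9%, 13.9% and 13.5% with MDM4. The MDM4 shares were thus all below the control shares, although the *PSMB10* level itself overlapped, and the log2 ratio differed by -0.15 (two-sided exact permutation test, p = 0.1). *PSMB9* made up 11.6%, 13.6% and 10.5% of its pair with *PSMB6* in control and 9.86%, 11.4% and 11.4% with MDM4. These groups overlapped, and the log2 ratio differed by -0.14 (two-sided exact permutation test, p = 0.4). With 3 against 3 libraries this permutation test cannot give a p under 0.1, and over the 3 pairs compared adjustment could only raise it.

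**Figure D3:**
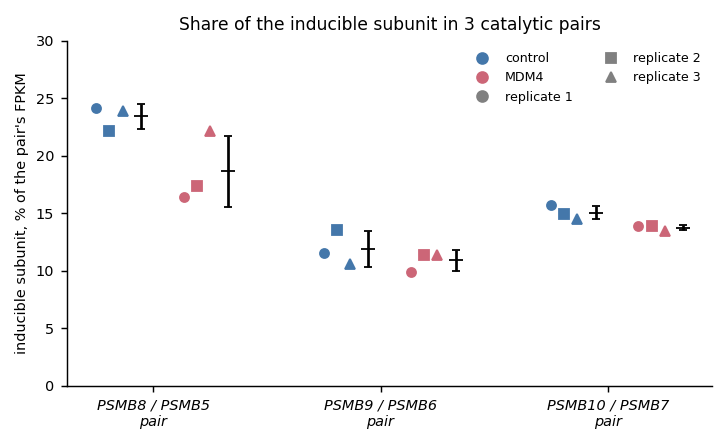
Share of the inducible subunit in the summed FPKM of each inducible and constitutive pair (y axis, percent, from 0) in the 3 control and 3 MDM4 libraries, with symbols for the replicate number and bars for the mean ± SD (n = 3). The PSMB8 share is 23.4% in control and 18.7% with MDM4, and the PSMB9 shares overlap.

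The structural 20S core genes were steady between the groups. The 7 tested α ring genes, which form the gate of the barrel, had a median log2 difference of -0.05, with 6 lower and 1, *PSMA4*, higher at 0.04. *PSMA7*, the gene of the α4 subunit and the member with the highest level, was at 276.4, 254.0 and 269.8 FPKM in control and at 243.1, 248.2 and 246.7 FPKM with MDM4. Its MDM4 libraries lay below its control libraries, with a log2 difference of -0.12 (standard error 0.054, unadjusted p = 0.0651, adjusted p = 0.9999 from limma), the most negative outside the immunoproteasome list. The 4 non-catalytic β genes *PSMB1* to *PSMB4* were all slightly lower on average, between -0.07 and -0.01, and all overlapped between groups.

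The *PSMC* and *PSMD* genes of the 19S cap differed little as well. The 6 ATPase genes *PSMC1* to *PSMC6*, whose products unfold the substrate, had a median log2 difference of -0.04, from -0.10 in *PSMC2* to 0.02 in *PSMC4*. *PSMC2* was at 111.7, 118.6 and 117.5 FPKM in control and at 106.2, 108.4 and 109.9 FPKM with MDM4, the one ATPase gene without overlap, with an adjusted p of 0.9999 from limma. The 11 non-ATPase genes had a median of -0.03 and ran from -0.11 in *PSMD8* to 0.08 in *PSMD12*. *PSMD4*, which encodes a ubiquitin receptor, was at 112.1, 104.0 and 111.6 FPKM in control and at 95.35, 105.2 and 105.7 FPKM with MDM4, and these groups overlapped. *PSMD8* was at 112.8, 100.5 and 104.1 FPKM in control and at 100.2, 101.2 and 93.05 FPKM with MDM4, with overlap as well. *PSMD14*, which encodes the deubiquitinase of the cap, differed by 0.01.

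Of the other activators, *PSME3*, the nuclear PA28γ, and *PSME4*, PA200, differed by -0.01 and 0.02 on the log2 scale, beside -0.20 and -0.31 for *PSME1* and *PSME2*, and the contrast between these genes was not tested. *PSMF1* encodes PI31, named as an inhibitor of the core. It was at 22.3, 22.0 and 20.8 FPKM in control and at 20.2, 20.8 and 19.1 FPKM with MDM4, a log2 difference of -0.11 with no overlap between groups by a gap of less than 0.1 FPKM. Among the assembly chaperones, the 4 *PSMG* genes had a median of -0.08 and *PSMD5*, *PSMD9* and *PSMD10* a median of -0.01. *PSMG1*, the chaperone with the largest difference at -0.11 (standard error 0.088), was at 44.96, 44.7 and 48.3 FPKM in control and at 38.5, 43.3 and 46.7 FPKM with MDM4, with overlapping groups. As a list, the 34 constitutive genes included 27 lower and 7 higher on average, beside 52.8% of all genes tested that were lower. Within replicates 1 to 3 their medians were -0.06, 0.02 and -0.07. Over all libraries their median was -0.04. It was -0.0099 with the libraries scaled to an equal FPKM sum and -0.0029 under quantile normalization.

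Levels of the members spanned 16.3-fold, from 15.8 FPKM for *PSMD9* to 256 FPKM for *PSMA7* as means over the 6 libraries. Within the α ring, whose subunits enter the particle in equal number, the span was 8.20-fold, from 31.3 FPKM for *PSMA5* to the level of *PSMA7*. The length behind the FPKM steps was 3766 bases for *PSMA5* and 988 to 1466 bases for the other tested α genes, and *PSMA5* had 3950 to 5286 reads against 8414 to 12759 for *PSMA7*, so that this span rests in part on the length used. The inducible catalytic genes, at 16.5 FPKM for *PSMB9*, 21.8 for *PSMB10* and 22.5 for *PSMB8*, were below each constitutive catalytic gene, which were at 84.4 FPKM or more. *PSMB8* and *PSMB10*, as neighbours in this order, overlapped in their libraries. The members varied less between libraries than most genes, with a median coefficient of variation over the 6 libraries of 5.18%, against 11.6% over all genes tested, at median levels of 87.6 and 11.2 FPKM. For the constitutive genes it was 4.89% and for the immunoproteasome genes 12.4%, a value that contains the difference between the groups.

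**Figure D4:**
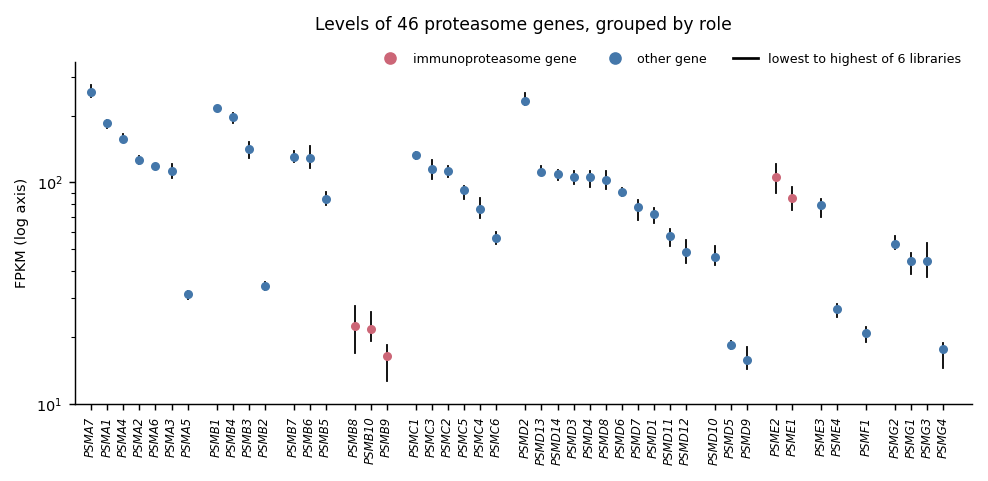
Mean level over the 6 libraries in FPKM (y axis, log scale) of the 46 tested proteasome genes grouped by role (x axis), with lines from the lowest to the highest library. Levels run from 15.8 FPKM for PSMD9 to 256 FPKM for PSMA7, and the 3 inducible catalytic genes lie between 16.5 and 22.5 FPKM.

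The remaining members are known from single tissues. *PSMA8*, a testis α subunit, had 0 reads in all 6 libraries, and *PSMB11*, the catalytic subunit of the thymic cortex, had 1 read in MDM4 replicate 3 and 0 elsewhere. A count of 0 allows up to 3 reads in a library, for counting error only. Neither was tested.

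The shift of replicate 3 against replicates 1 and 2, averaged over both groups, was next compared with the difference between the groups. In 9 of 46 members replicate 3 of both groups was below the other 4 libraries, beside 18.4% of all genes tested, and in 5 it was above them, beside 37.3%. *PSMG3*, a 20S assembly chaperone gene, was at 38.6 and 37.5 FPKM in replicate 3 of control and MDM4 and between 44.0 and 53.4 FPKM in the other 4 libraries. *PSMD10*, which encodes the chaperone gankyrin, was at 51.8 and 49.98 FPKM in replicate 3 and between 42.5 and 44.9 FPKM elsewhere. These genes were picked after their values were seen, as the members at either end of this shift. The averaged shift exceeded the MDM4 difference in 25 of the 41 members outside the immunoproteasome list and in 0 of the 5 within it, and over all genes tested in 9767 of 12884. In *PSMB8*, *PSMB9*, *PSME1* and *PSME2* the shift had opposite signs in the groups, so that it partly cancels in this average. In that order it was -0.006, -0.08, -0.11 and -0.06 in control and 0.32, 0.26, 0.12 and 0.20 in MDM4 libraries. The median size of the averaged shift was 0.07 on the log2 scale over the 46 members and 0.21 over all genes.

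**Figure D5:**
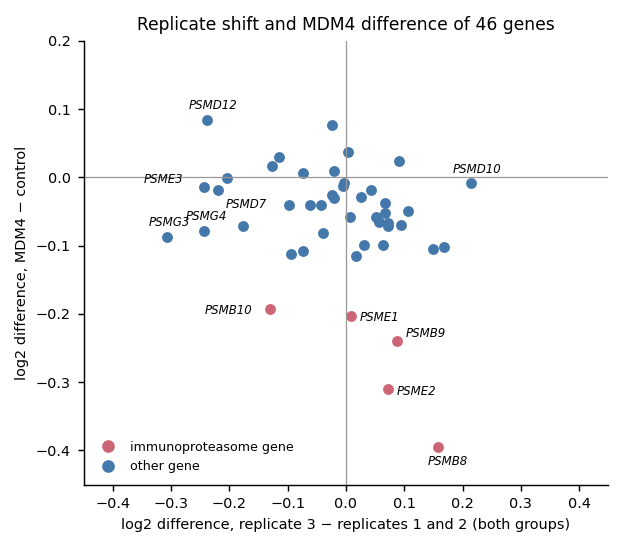
Log2 difference of replicate 3 from the mean of replicates 1 and 2 over both groups (x axis) against the log2 difference, MDM4 minus control (y axis), for the 46 tested proteasome genes. The 5 immunoproteasome genes lie lowest on the y axis, at -0.19 and below, while PSMG3 and PSMD10 lie at the ends of the x axis.

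Genes that work with the proteasome gave a list of 22, all tested, of which 9 were lower and 13 higher with a median of 0.01. At an unadjusted p under 0.05 this list held 1 gene, *SEM1*, beside 1.72% of all genes tested, and 0 passed after adjustment. *SEM1* encodes a small 19S subunit also known to bind BRCA2, and was at 125.7, 124.5 and 115.8 FPKM in control and at 105.7, 99.5 and 109.3 FPKM with MDM4, without overlap. Its log2 difference was -0.22 (standard error 0.065, unadjusted p = 0.0107, adjusted p = 0.9999 from limma). *POMP*, the maturation factor of the core and of immunoproteasome assembly, was at 76.7, 74.0 and 78.9 FPKM in control and at 76.4, 77.97 and 77.7 FPKM with MDM4, a log2 difference of 0.02. *NFE2L1*, which encodes the NRF1 factor that raises proteasome genes when the proteasome is impaired, was at 67.1, 65.0 and 63.1 FPKM in control and at 68.8, 66.3 and 61.5 FPKM with MDM4, a log2 difference of 0.01.

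The 12 genes of MHC class I peptide supply and of its regulators were all lower on average, beside 52.8% of all genes tested. Their median log2 difference was -0.22, and 0 passed after adjustment over 3 against 3 libraries. Within replicates 1 to 3 their medians were -0.37, -0.24 and -0.03, with 11, 12 and 7 of the 12 lower. At an unadjusted p under 0.05 were 4 of them, *HLA-B*, *HLA-C*, *B2M* and *IRF9*, beside 1.72% of all genes tested, and in *HLA-B* and *HLA-C*, which are similar in sequence and could share reads, the groups did not overlap, beside 3.76% of all genes with MDM4 lower. *TAP1*, which carries proteasome products into the endoplasmic reticulum, was at 28.4, 26.5 and 29.03 FPKM in control and at 20.7, 22.4 and 28.2 FPKM with MDM4. Its groups overlapped through MDM4 replicate 3, and its log2 difference was -0.24 (standard error 0.12, adjusted p = 0.9999 from limma). *TAP2*, its partner, differed by -0.14 and *IRF1*, a factor that binds interferon response elements, by -0.19, both with overlap.

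*HLA-B* was at 186.8, 176.7 and 138.1 FPKM in control and at 133.2, 126.4 and 131.8 FPKM with MDM4, a log2 difference of -0.35. *HLA-C* differed by -0.24 and *B2M*, the light chain gene, by -0.18. *IRF9*, the DNA-binding part of the complex that interferons activate, was at 19.6, 17.2 and 6.98 FPKM in control and at 3.80, 4.76 and 7.12 FPKM with MDM4. Control replicate 3 lay among the MDM4 libraries, and the log2 difference over all libraries was -1.38. Over replicates 1 and 2 alone, *IRF9* fell by 2.08 and *HLA-B* by 0.49 on the log2 scale (adjusted p = 3.88e-06 and 0.00346 from limma). In that comparison *PSMB8* differed by -0.50 (adjusted p = 0.0649 from limma), *PSMB9* by -0.35 (adjusted p = 0.387), *PSME1* by -0.28 (adjusted p = 0.175) and *PSMB10* by -0.20 (adjusted p = 0.634), so that of the 5 immunoproteasome genes *PSME2* passed and the other 4 did not. All these differences share the same control libraries.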

How the data were processed

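mRNA of 6 SW480 samples was sequenced after oligo(dT) enrichment. The authors deposited FPKM values per gene symbol, for which the aligner, annotation, genome build and strand setting are not given in the sources used here. Each value was a whole multiple of 1 step, so that reads were recovered for 17189 of 17189 genes above 0 (100%, within 0.02 reads). Read recovery and the limma comparison described next were both run on simulated data. There, 96.1% of 5709 genes above 0 had all reads recovered exactly. Of 100 genes changed by 1 on the log2 scale limma called 78%, and of 100 changed by 2 it called 95%. False calls numbered 11 among the genes left unchanged, in a simulation of 12884 genes. Detection of changes under 1, such as those of the members tested here, was not tested. For larger changes, detection in the 6 libraries themselves was not tested either. In limma without a block over these libraries, *MDM4* differed by 4.33 on the log2 scale and did not pass (adjusted p = 0.161). FPKM values, with 0.1 added, were log2-transformed and compared in limma 3.58.1 (R 4.3.3), using lmFit and trended eBayes without a block. Genes averaging 0.5 FPKM or more were kept, 12884 in all and 46 of the 48 members, and p-values were adjusted over all of these by Benjamini-Hochberg. The same-numbered libraries deviated together (correlations across genes of 0.46, 0.45 and 0.78), but replicates 1 and 2 correlated across numbers as well (0.46 and 0.44). These values set replicate 3 apart and do not show that replicates 1 and 2 are paired by number. The block and the differences between same-numbered libraries take the numbers as pairs, while the main fit does not. Ratios were compared with exact permutation tests in scipy 1.17.1. Python 3.11.15, numpy 2.4.6, pandas 2.3.3 and matplotlib 3.10.9 were used for tables and plots. Positions are from GENCODE release 29 and promoter windows from RefSeq (GRCh38.p14), and neither is known to be the annotation behind the FPKM values.

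Members, gene lists and tests were chosen with earlier results of these data known. Named in full were the 5 immunoproteasome genes, *PSMB5* to *PSMB7*, the 5 other members with the largest absolute difference, the 5 with the smallest unadjusted p, *MDM4*, and, of the partner and MHC class I lists, genes with an unadjusted p under 0.05, *TAP1*, *TAP2*, *NFE2L1*, *POMP* and *IRF1*. The MHC class I list was used with 12 genes after 2 were left out, which are not reported here.  Alternatives were pseudocounts of 0.5 and 1, no filter or a mean of at least 1 FPKM, eBayes without trend, 3 other scalings, a fold threshold, the replicate block, each library left out, replicates 1 and 2 alone, and voom with and without the block.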

Additional observations from a re-analysis of the deposited data

How the results depend on the processing

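The count of members past the adjusted threshold was 0 in limma over all libraries and 1 over replicates 1 and 2 alone (*PSME2*). With the replicate block the paired fit gave 0 over all libraries and 2 over replicates 1 and 2 (*PSMB8* and *PSME2*), an alternative added after the data were seen, as was voom over those 4 libraries, which gave 0. The block changed no call of a member over all libraries. The median of the immunoproteasome genes moved to -0.35 over replicates 1 and 2 alone, and that of the constitutive genes to -0.0029 under quantile normalization. With each library left out in turn, the count stayed at 0, the medians ran from -0.32 to -0.19 and from -0.055 to -0.027, and the log2 ratio differences from -0.59 to -0.32 (*PSMB8* over *PSMB5*), -0.23 to -0.024 (*PSMB9* over *PSMB6*) and -0.18 to -0.12 (*PSMB10* over *PSMB7*). Signs turned for *PSMB5* (-0.015 to 0.084), *PSMB7* (-0.087 to 0.0015), *POMP* (-0.0079 to 0.038) and *NFE2L1* (-0.027 to 0.053), none of which was called. Under the same removals the log2 difference of *PSMB8* ran from -0.50 to -0.30, of *PSMB9* from -0.32 to -0.12, of *PSMB10* from -0.25 to -0.12, of *PSME1* from -0.24 to -0.16 and of *PSME2* from -0.38 to -0.28. Each group held 3 libraries, and replicate 3 stood apart in both.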
